A study of Mus musculus with 12 samples.

Results

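Clustered histone genes were followed in B cells of Peyer's patches (PP), the lymphoid follicles of the small intestine, after sham surgery or stroke. Genes were taken by their symbol, as any gene named in the older Hist1 to Hist4 style or in the newer H1f, H2ac, H2bc, H3c and H4c style, which gave 66 of the 36175 genes in the table. They comprised 6 H1, 19 H2A, 17 H2B, 12 H3 and 12 H4 genes, of which 56 lie on chromosome 13 and 10 on chromosome 3 (GRCm38). All mice were wild-type C57BL/6JHsd males aged 10 to 12 weeks. In the 6 stroke mice the middle cerebral artery was occluded for 1 h and then reopened, in the 6 sham controls the filament was put into the common carotid artery and withdrawn at once, and cells were taken 18 h later. B cells were enriched with magnetic beads in 2 steps, and each mouse gave 1 library. According to the methods a few epithelial and endothelial cells remained after the first step, the second selected for CD45, a surface protein of leukocytes that epithelial cells lack, and the final preparation was nearly pure B cells. The labels describe total RNA, and how ribosomal RNA was removed is not given in the sources used here.

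Nucleosomes wrap DNA around a core of H2A, H2B, H3 and H4, and the linker histone H1 binds where the DNA enters and leaves. The clustered genes supply these proteins while DNA is being copied, so their mRNAs accumulate in S phase and decay when replication stops. These mRNAs have few or no introns and, unlike other mRNAs, usually end in a stem-loop in place of a poly(A) tail. SLBP binds the stem-loop, and the precursor is cleaved downstream of it with the help of the U7 small nuclear RNA. Germinal centre B cells of PP divide rapidly and are therefore a known site of histone synthesis.

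The stem-loop was searched for as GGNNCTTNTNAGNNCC, on the sense strand, in the GENCODE M21 transcript models of the members. It was found in 43 of 66 members, and the sequences below show the stem of H4 genes beside that of the other classes, with H2bc12 as an example of a less common loop. Capitals mark the searched stem-loop, and the flanking bases are in lower case.
H1f4: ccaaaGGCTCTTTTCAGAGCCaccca
H2ac18: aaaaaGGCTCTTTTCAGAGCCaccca
H2bc12: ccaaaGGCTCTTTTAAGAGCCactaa
H3c2: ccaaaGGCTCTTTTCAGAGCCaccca
H4c8: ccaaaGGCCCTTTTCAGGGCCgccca
H4c11: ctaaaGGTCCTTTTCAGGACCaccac
The commonest form, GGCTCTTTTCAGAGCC, stood in 24 members, namely 3 H1, 9 H2A, 7 H2B and 5 H3 genes, and in no H4 gene. The 11 H4 genes with the motif instead had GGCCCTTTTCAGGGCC (6 genes), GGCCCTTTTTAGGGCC (2 genes), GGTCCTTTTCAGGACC (2 genes) or GGCCCTTCTCAGGGCC (1 gene). The models ended within 60 bases of the stem-loop in 22 members, whereas 16 models ran on for over 300 bases, up to 4884 bases in H1f3, which encodes a somatic linker histone. Of the 23 members without the motif, 13 had models that stop at the stop codon and so hold no bases in which it could be found, 8 had bases after the stop codon and 2 had no coding sequence.

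Many members are nearly the same sequence, and this decided how the values of single genes could be read. All 12 H4 genes encode 1 protein of 103 residues, while all 6 H1 genes differ in protein. The 12 H3 genes encode 3 distinct proteins, of which 2 belong to the 11 genes with a mean of at least 1. The other is the 181-residue reading frame of H3c14, which had a mean of 0.943. Of all stretches of 31 bases, the default word length of kallisto, the median share that a member held alone was 40.5% over the 66 members, 96.3% for H1 and 18.1% for H2A. A share under 15% was found in 19 members, and a share over 90% in 6. In some pairs of close copies the deposited signal lay almost wholly on 1 of them. H2ac19 was listed at 0 in every mouse and all of its 31-base stretches also occur in H2ac18, which had a mean of 1196. Likewise the means were 0.133 for Hist1h4m and 513 for Hist1h4n, 4.07 for Hist1h2ao and 712 for Hist1h2ap, and 0.253 for Hist1h2bq and 69.4 for Hist1h2br, pairs in which at least 91.7% of the stretches of the first occur in the second, though 31, 28 and 35 stretches are found only in Hist1h4m, Hist1h2ao and Hist1h2bq. In other close pairs both copies held signal, such as H3c10 and H3c11, which share 85.3% of their stretches and had means of 97.1 and 253. Levels of single members within such groups are therefore uncertain, and sums over a class are less affected.

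Clustered histone transcripts were abundant in PP B cells by the deposited signal. In it the classes stood in the order H2A, H2B, H4, H3 and H1 in every mouse except sham control 6 and stroke mouse 5. Values are the deposited expression signal, labelled as normalized TPM and thus per transcript length. Model lengths ranged from 312 nt (H4c12) to 7425 nt (H1f3). The part of model length in the order of classes and genes was not tested. The members together took from 0.488% to 2.12% of the column total in sham controls and from 1.22% to 2.24% in stroke mice. H2A genes made up the largest class, at 40.3% ± 2.36 of the histone signal in sham controls and 41.0% ± 2.97 in stroke mice (SD, n = 6 each). H2B followed at 21.9% ± 0.745 and 21.7% ± 1.12, H4 at 15.96% ± 2.43 and 14.5% ± 1.74, H3 at 12.0% ± 1.20 and 12.5% ± 0.831, and H1 at 9.76% ± 0.968 and 10.3% ± 2.34. These shares differed between the groups by less than their SD within a group. Among single genes the mean over 12 mice ranged up to 1196 for H2ac18, 893 for H2bc18, 513 for Hist1h4n, 464 for H1f2 and 316 for H3c13.

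A marked feature of the members was a large spread between mice that all classes shared. Their summed value was 24990, 29426, 9505, 11449, 17999 and 2733 in sham controls 1 to 6, a 10.8-fold range. It was 12625, 12662, 22869, 10668, 9859 and 10844 in stroke mice 1 to 6, a 2.32-fold range that lay within that of the sham controls. Sham controls 1 and 2 and stroke mouse 3 were high, and sham control 6 was low. A large spread was not particular to the members, as summed epithelial markers ranged 37.5-fold over the 12 mice.

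**Figure D1:**
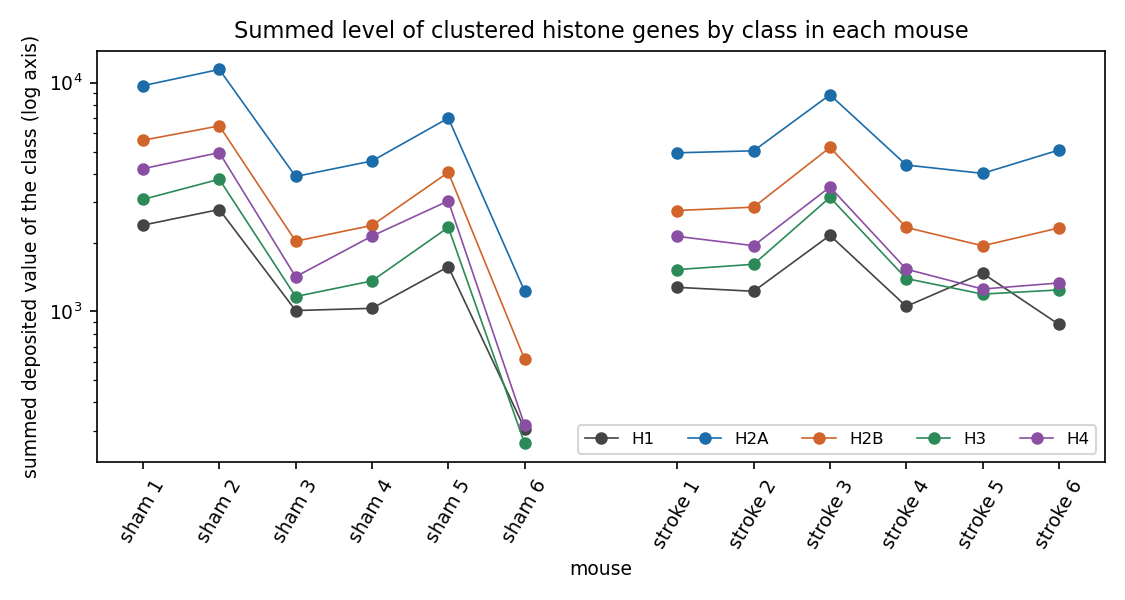
Summed deposited value of the members of each class (vertical log axis) in each of 12 mice, with 1 colour per class and lines that only join the values of a class. All classes peak in sham 2 and stroke 3 and are lowest in sham 6, where the sum of all members was 2733.

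The spread was also seen in single members. They come from the same mice and near-identical ones share reads, so they are not independent. Of the 56 members that reached 1 in all 12 mice, 55 were lowest in sham control 6 and 55 were highest in sham control 2. Of the 12534 other genes that passed this filter, 26.9% were lowest in sham control 6 and 19.7% were highest in sham control 2. Both held for 55 members and for 1460 of these other genes. The SD of log2(value + 0.5) over 12 mice had a median of 0.93 for members against 0.31 for the other genes. Of the 56 members, 53 were above the 90th percentile of the others (0.60) but only 1 was above the 99th (1.17). In all 56 members the SD was larger among sham controls than among stroke mice, with medians of 1.29 and 0.51, whereas this was so for 60.3% of the other genes. Without sham control 6 the SD was still larger among sham controls in all 56 members, with medians of 0.71 and 0.51, against 44.1% of the other genes, and the range of the sum among sham controls was 3.10-fold. Without stroke mouse 3 the median SD among stroke mice was 0.28 and their range of the sum was 1.28-fold. The difference in spread between the groups was not tested. The median member was 2.23 below its 12-mouse mean on the log2 scale in sham control 6 (a deviation of -2.23) and 1.29 above it in sham control 2. Among the other short genes the deviations were smaller. Genes with models up to 600 nt had median deviations of -0.05 and 0.02 in those 2 mice and those of the next length bin, up to 1000 nt, had -0.25 and 0.29. The part of transcript length in the shared spread was not tested.

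**Figure D2:**
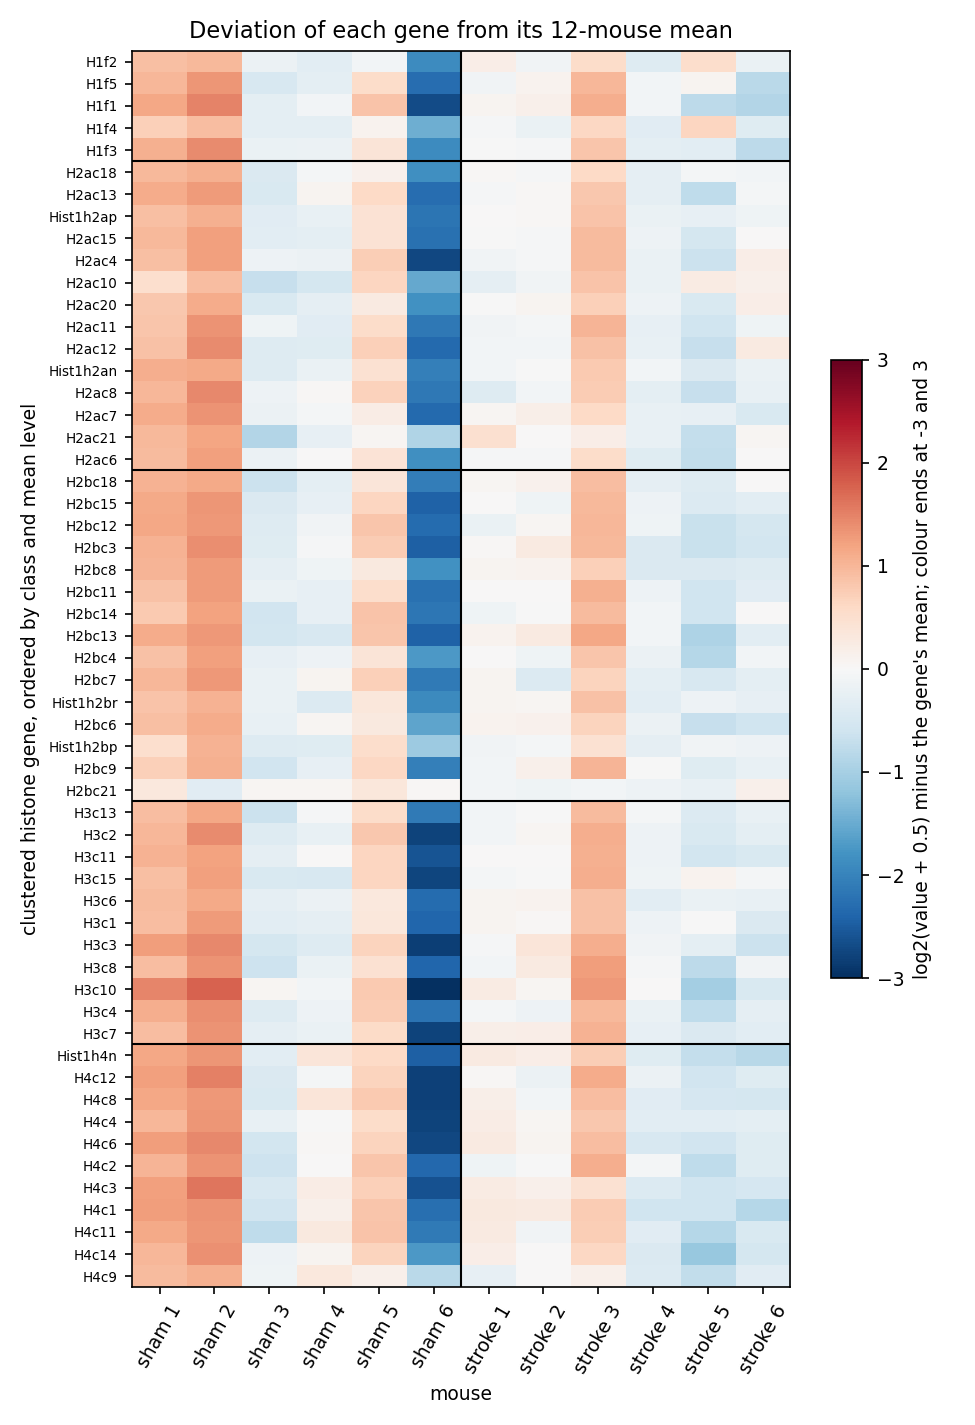
Heatmap of log2(value + 0.5) minus the 12-mouse mean for each of 56 members (rows, by class and mean level) in each mouse (columns), with red above and blue below the mean and colours that end at -3 and 3. The columns of sham 1, sham 2, stroke 3 and, more palely, sham 5 are red and that of sham 6 is blue in at least 55 rows each, those of stroke 4 (55 rows) and sham 3 (54 rows) are pale blue, and H2bc21 is the palest row.

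Members departed from the shared pattern to different degrees. H3c10, an H3 gene with only 5.77% of its 31-base stretches to itself, ranged 69.0-fold, from 3.40 in sham control 6 to 235 in sham control 2. H2bc21, whose model of 2620 nt is 97.2% its own, ranged only 1.73-fold at a low level, from 2.52 to 4.37. The 9 members with models over 1500 nt had a median range of 7.98-fold, against 12.7-fold for the 35 members with models up to 700 nt. H4c9 (3.77-fold) and H2ac21 also varied less than most. Relative to the median member, H1f2 and H1f4, which encode somatic linker histones, were raised in stroke mouse 5 by 1.05 and 1.17 on the log2 scale, and H1 took 14.9% of the histone signal there against 8.09% to 10.1% in the other stroke mice.

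Some measures of the libraries moved with the histone level. The column totals were 1404340 and 1386994 in sham controls 1 and 2, 559570 in sham control 6, and between 804983 and 1020759 in the other mice. The 10 genes of highest value took 45.8% and 41.4% of the total in sham controls 1 and 2, 14.7% in sham control 6, 34.4% in stroke mouse 3 and from 27.2% to 31.8% in the other mice. Stroke mouse 6 stood apart in another way, with 30060 genes above 0 against 20626 to 23947 in the other mice. When every mouse was rescaled to the same total, the range of the histone sum among sham controls was 4.34-fold in place of 10.8-fold, and that among stroke mice was 1.84-fold. With median-of-ratios scaling these ranges were 9.70-fold and 2.29-fold. Markers of B cells (7 of 7 genes above 0 in every mouse) summed to between 2197 and 2736 in sham controls and between 1587 and 2591 in stroke mice. Epithelial markers (8 genes, none at 0 in all mice, from cells that the CD45 selection would remove) summed to 1061 and 1007 in sham controls 1 and 2, 32.2 in sham control 6, and 36.6 in stroke mouse 3, with ranges of 32.2 to 1061 in sham controls and 28.3 to 574 in stroke mice. Plasma cell markers summed to 1122 and 979 in sham controls 1 and 2, 159 in sham control 6 and 615 in stroke mouse 3, which was below 4 of the mice with fewer histone transcripts (654 to 803). Macrophage markers (5 of 5 genes above 0 in every mouse) summed to 86.5 and 62.4 in sham controls 1 and 2, 19.0 in sham control 6 and 54.2 in stroke mouse 3, with 21.9 to 43.8 in the other mice. Germinal centre markers (7 of 7 genes above 0 in every mouse) were highest in sham control 5 (360) and stroke mouse 3 (335), with 201 and 248 in sham controls 1 and 2 and 221 in sham control 6. The T cell, Paneth cell, endothelial, neutrophil and erythroid lists each had their highest sum in a mouse other than sham controls 1 and 2 and stroke mouse 3, and of these 5 lists the Paneth cell list was lowest in sham control 6. The part of cell mixture, of library total and of the share of the top genes in the histone level was not tested. In these bulk samples fewer cells in S phase and less histone RNA per cell cannot be told apart.

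No clustered histone gene passed the test between stroke and sham. The comparison asks whether histone transcripts of PP B cells changed 18 h after stroke. With limma on log2(value + 0.5) over 12590 genes, 0 of 56 members reached an unadjusted p of 0.05 in either direction. At that level 4.42% of all genes tested were higher in stroke mice and 1.69% were lower. With Benjamini-Hochberg adjustment in limma, 0 members passed 0.05 (0% of all genes), and the smallest adjusted p among them was 0.791. The groups overlapped in all 56 members, while every stroke mouse was above every sham control in 0.349% of all genes and below in 0.0874%. The median log2 fold change was -0.02 over the members and 0.01 over all genes tested. Members were higher in 25 and lower in 31 cases, with fold changes from -0.52 to 0.31.

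**Figure D3:**
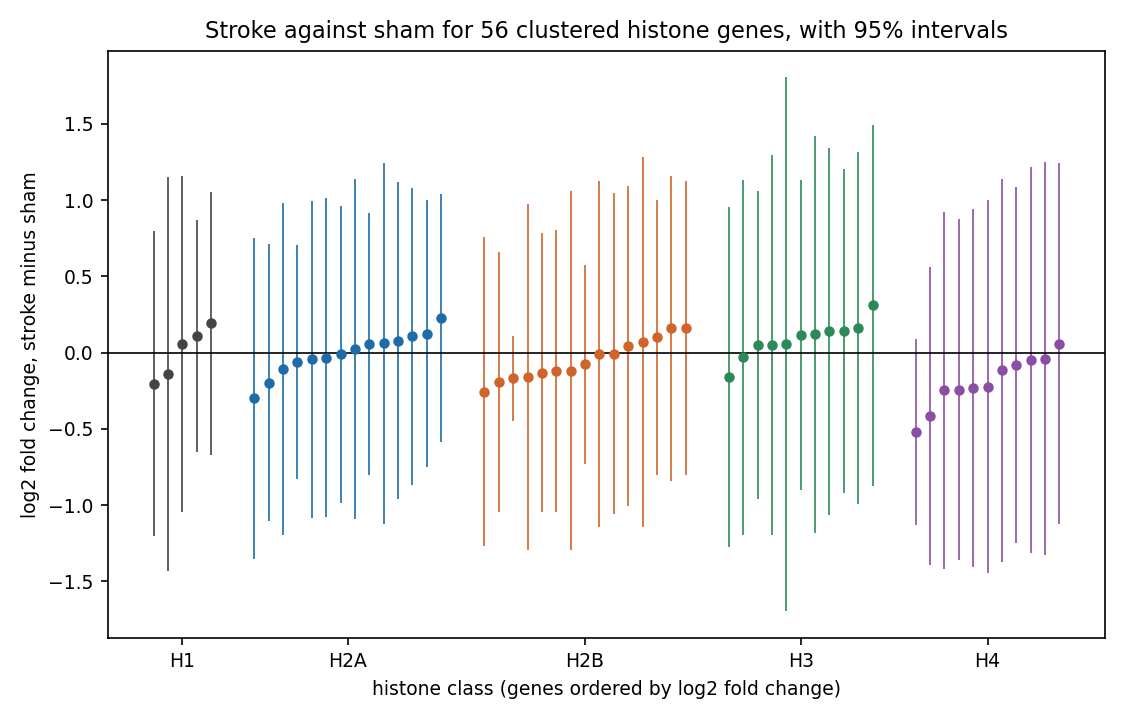
Log2 fold change (stroke minus sham, vertical axis) of 56 members grouped by class along the horizontal axis, with bars for the 95% interval from limma (n = 6 and 6). Every bar crosses 0, and the points lie between -0.52 and 0.31.

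The width of these intervals sets what the data could show. The standard error of the log2 fold change had a median of 0.49 over the members. For 55 of 56 members the 95% interval of limma lay within -1.5 and 1.5, but only for 6 within -1 and 1, so that for the other 50 it reached a 2-fold change in at least 1 direction. The direction of the small differences hung on single mice. Without sham control 6, all 56 members were lower in stroke mice, with a median log2 fold change of -0.48, and 6 of them (H4c9, H4c3, H2bc7, H2ac8, Hist1h4n and H4c14) had an unadjusted p under 0.05, with a smallest adjusted p of 0.247 in limma. That is a share near the background, since 9.18% of all genes were lower at that level in the same fit. Without sham control 2, 50 of 56 were higher, with a median of 0.24, and 1, H2bc21, was lower at an unadjusted p under 0.05, beside 1.15% of all genes. Leaving out stroke mouse 3 left 3 of 56 above 0. Rescaling each mouse to the same total put 40 of 56 above 0, with a median of 0.11 over the members beside 0.13 over all genes.

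Among H1 genes, which encode the linker histones, none passed the test. H1f2 was at 112, 384 and 817 (lowest, median and highest) in sham controls and at 321, 432 and 606 in stroke mice. The log2 fold change came to 0.19 ± 0.40 (SE), with p = 0.736 in the exact two-sided permutation test (n = 6 and 6). H1f5 was at 71.3, 396 and 863 against 198, 346 and 693 (0.06 ± 0.51). H1f1, with 99.7% of its 31-base stretches to itself, was at 30.5, 275 and 561 against 109, 200 and 426 (-0.14 ± 0.60). In each of the 3 genes the values of the stroke mice lay inside those of the sham controls. Over the 5 H1 genes tested, 3 were above and 2 below 0, with a median of 0.06, and 0 were above 0 without sham control 6, 1 without stroke mouse 3 and 5 without sham control 2. H1f6, the testis linker histone, stayed below 1 in every mouse.

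H2A genes lay on both sides of 0, and none passed the test. H2ac18 was at 301, 1097 and 2260 in sham controls and at 891, 1043 and 1621 in stroke mice, a log2 fold change of 0.06 ± 0.40 (SE). H2ac13 was at 181, 1137 and 2143 against 524, 856 and 1546 (-0.10 ± 0.51), and Hist1h2ap at 138, 696 and 1315 against 526, 603 and 1132 (0.11 ± 0.45). The medians of the groups lay close together in H2ac18, and the sham range enclosed the stroke range in all 3 genes. The largest differences in the class were those of H2ac10 (0.23 ± 0.38, exact permutation p = 0.619, n = 6 and 6) and H2ac8 (-0.30 ± 0.49, exact permutation p = 0.613, n = 6 and 6). Of 14 H2A genes tested, 7 were above and 7 below 0, while 12 were above 0 with each mouse rescaled to the same total, 13 without sham control 2, 1 without stroke mouse 3 and 0 without sham control 6. The filter removed part of the class, as 5 of the 19 did not pass the filter, among them H2ac1, a testis gene, which was above 0 in 3 mice.

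Of the H2B genes, too, none passed the test. H2bc18 was at 183, 809 and 1691 in sham controls and at 594, 797 and 1464 in stroke mice (0.16 ± 0.46). H2bc15 was at 80.5, 521 and 1075 against 324, 393 and 844 (-0.01 ± 0.53), and H2bc12 at 62.1, 417 and 761 against 193, 277 and 615 (-0.16 ± 0.53). The stroke mice again lay inside the sham range in each. Of 15 H2B genes tested, 5 were above and 10 below 0, with a median of -0.08, while 10 were above 0 with each mouse rescaled to the same total, 13 without sham control 2 and 0 without sham control 6 or stroke mouse 3. H2bc1, a testis gene, was listed at 0 in every mouse.

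No H3 gene passed the test, and 9 of the 11 tested were above 0, a count that was 0 of 11 without sham control 6 and 1 of 11 without stroke mouse 3. H3c13 was at 62.8, 336 and 610 in sham controls and at 206, 261 and 524 in stroke mice (0.05 ± 0.47). H3c2 was at 35.5, 320 and 659 against 179, 225 and 528 (0.05 ± 0.58), and H3c11 at 34.8, 272 and 488 against 145, 200 and 443 (-0.03 ± 0.54). In these genes the median of the stroke mice was below that of the sham controls while the mean log2 values were nearly equal, with sham control 6 far below the rest. H3c15 had the highest log2 fold change of all members (0.31 ± 0.55, exact permutation p = 0.738, n = 6 and 6), from values of 21.7, 172 and 356 in sham controls and 137, 147 and 319 in stroke mice. The median over the H3 genes tested was 0.12.

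No H4 gene passed the test, and 10 of the 11 tested were below 0, a count that was 6 of 11 with each mouse rescaled to the same total and 3 of 11 without sham control 2. Hist1h4n was at 76.7, 596 and 1055 in sham controls and at 237, 409 and 712 in stroke mice (-0.23 ± 0.55). H4c12 was at 50.3, 452 and 1009 against 238, 315 and 773 (-0.04 ± 0.60), and H4c8 at 43.4, 461 and 754 against 212, 266 and 577 (-0.11 ± 0.58). The groups overlapped in each. H4c9 had the lowest log2 fold change of all members, -0.52 ± 0.28, with values of 14.7, 30.8 and 55.6 in sham controls and 15.5, 21.3 and 29.3 in stroke mice. Its exact permutation p was 0.134 (n = 6 and 6), and its unadjusted p in limma was 0.0894, which became 0.0421 when each mouse was rescaled to the same total and 0.0366 with sample quality weights, where 0.548% and 5.58% of all genes were lower at an unadjusted p under 0.05. H4c14, whose model runs 1257 bases past the stem-loop, was at 7.60, 34.9 and 69.3 against 11.8, 23.0 and 40.4 (-0.41 ± 0.45). The median over the H4 genes tested was -0.22.

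The promoters of the members share short motifs. Promoter sequences of RefSeq on GRCm38.p6, from 250 bases before to 50 after the start, matched 51 of 66 members. The letters CCAAT, on either strand, stood in 45 of 51 members (88.2%) and in 41.1% of all 27025 genes with such a sequence. They stood in every matched H1, H2A, H2B and H3 gene but in only 3 of 9 H4 genes. TATAAA, on either strand, stood in 58.8% of members and in 15.7% of all genes. The octamer ATTTGCAT, on either strand, which contains neither of the other motifs, stood in 7 of 12 H2B genes and 6 of 14 H2A genes and in no H1, H3 or H4 gene, against 1.97% of all genes. In 7 H2A and H2B pairs that are transcribed away from each other, the windows of the partners shared 220 to 279 bases, so an octamer in 1 window can lie in that of the partner too. The 100 bases before the start are given for abundant members of 4 classes, with these motifs in capitals, to show the CCAAT of H1, H2B and H3, the octamer of H2B and the TATAAA of H4.
H1f2, chr13:23738707-23738806, plus strand: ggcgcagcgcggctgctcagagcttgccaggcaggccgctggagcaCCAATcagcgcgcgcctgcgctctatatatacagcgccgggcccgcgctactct
H2bc18, chr3:96269600-96269699, plus strand: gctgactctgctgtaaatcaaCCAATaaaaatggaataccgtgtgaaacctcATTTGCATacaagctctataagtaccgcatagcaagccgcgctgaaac
H3c13, chr3:96268554-96268653, plus strand: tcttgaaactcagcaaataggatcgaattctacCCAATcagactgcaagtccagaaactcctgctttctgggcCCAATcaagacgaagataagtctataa
H4c12, chr13:21750554-21750653, minus strand: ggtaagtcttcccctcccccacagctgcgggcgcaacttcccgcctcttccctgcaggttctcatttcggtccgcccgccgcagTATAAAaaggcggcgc
These 4 genes all had their highest value in sham control 2 and their lowest in sham control 6.

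Replacement histone variants, which are made outside S phase from genes elsewhere in the genome and mostly have poly(A) tails, varied less in their sum. Their 11 genes summed to 670, 1395 and 2028 (lowest, median and highest) in sham controls and to 1107, 1252 and 1622 in stroke mice, a 3.03-fold range over 12 mice. H3f3a, 1 of 2 genes for H3.3, had a log2 fold change of -0.33 ± 0.33 and H3f3b, the other, 0.20 ± 0.20. H2ax, whose protein marks DNA breaks and whose mRNA can end in a stem-loop, ranged 9.78-fold, from 17.9 to 175 (0.24 ± 0.45). H2az1 (0.26 ± 0.31), H2az2 (-0.18 ± 0.26), Macroh2a1 (0.07 ± 0.12), H2aj (0.06 ± 0.20), Cenpa of the centromere (0.20 ± 0.19), H1f0 (0.41 ± 0.34) and H1f10 (0.60 ± 0.49) made up the rest of the 10 variants tested. None of the 10 passed at an unadjusted p of 0.05 in limma, with a smallest of 0.247. Macroh2a2 stayed below 1 in every mouse. As single genes H1f10 ranged 12.3-fold, more than 31 of the 56 clustered members tested, and the range of H2ax exceeded that of 20 members, while the median member ranged 11.8-fold.

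Genes for making and loading histones varied less than the histones as summed lists, while single genes of these lists ranged up to 10.5-fold (Lsm10, a U7 protein gene at a mean of 4.60). The list for histone mRNA, from its transcription and 3′ end processing to its decay, held 24 genes with SLBP, NPAT and the U7 proteins. It ranged 1.39-fold in its sum, and its genes ranged 2.10-fold in the median. Slbp itself was at 54.6, 91.9 and 117 in sham controls and at 76.7, 90.7 and 112 in stroke mice (0.02 ± 0.18). Its lowest value was also that of sham control 6, 2.14-fold below the highest. In that list 0 of 22 genes tested passed at an unadjusted p of 0.05, and the 3 smallest belonged to Zfp473, a zinc finger protein of the U7 pathway (0.33 ± 0.17), Srrt (0.30 ± 0.16) and Lsm1 (-0.33 ± 0.18). The 22 histone chaperones ranged 1.71-fold in their sum and from 1.36-fold to 3.84-fold (Asf1b) as single genes, with 0 of 22 past an unadjusted p of 0.05 and the smallest p for Supt6 (0.20 ± 0.12), Nasp (0.20 ± 0.13) and Cdan1 (0.20 ± 0.13).

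Genes of DNA replication and of mitosis ordered the mice only in part as the histones did. The 40 replication and S phase genes summed to 1294, 1454 and 2007 in sham controls and to 1358, 1619 and 2088 in stroke mice, a 1.61-fold range over all mice. The 16 genes of G2 and mitosis summed to 320, 374 and 711 against 342, 475 and 782, a 2.44-fold range. Both lists were highest in stroke mouse 3 and next highest in sham control 5, which were the third and the fourth highest in the histone sum. Sham control 2, highest in histones, came next after them in both lists (1799 and 524). Sham control 1, second in histones, was 0.06 below the mean of the replication list and 0.16 below that of the mitosis list on the log2 scale (deviations of -0.06 and -0.16). Sham control 6, with a deviation of -2.21 in histones, was the lowest mouse of the replication list too (-0.29). In the mitosis list it had -0.39, and sham control 3 was lowest (-0.49). In the replication list 0 of 40 genes passed at an unadjusted p of 0.05 and 28 were above 0 (18 without sham control 6), with the smallest p for Lig1 (0.33 ± 0.18), Cdc45 (0.51 ± 0.29) and Clspn (0.36 ± 0.21). In the mitosis list 0 of 16 passed and all 16 were above 0 (11 without stroke mouse 3), with the smallest p for Mki67 (0.46 ± 0.24), Cenpf (0.40 ± 0.22) and Cenpe (0.43 ± 0.27). The median log2 fold change was 0.07 in the replication list, 0.16 in the mitosis list and -0.02 in the clustered histone genes, beside 0.01 over all genes tested.

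**Figure D4:**
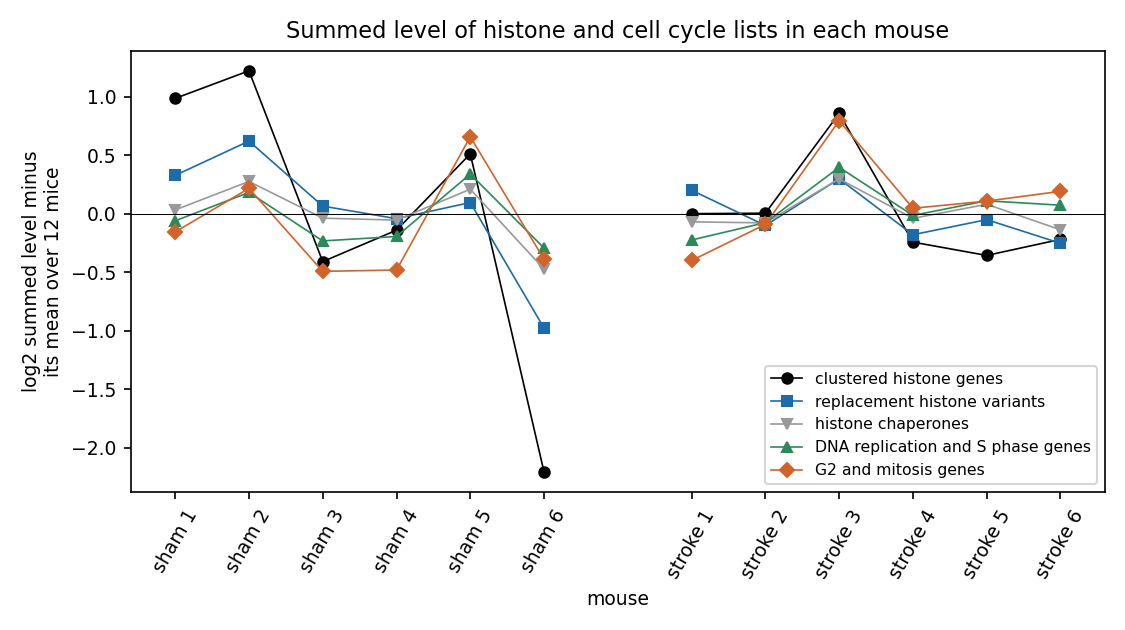
Log2 summed level of 5 gene lists minus its mean over 12 mice (vertical axis) in each mouse, with 1 colour and symbol per list and lines that only join the values of a list. In sham 6 the clustered histone genes lie at -2.21, below the other 4 lists, and in stroke 3 they lie near the mitosis list.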

How the data were processed

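RNA was sequenced from PP B cells of 6 sham controls and 6 stroke mice. Per the methods, the authors trimmed reads with Trimmomatic 0.39 and quantified them with kallisto 0.48.0 against Ensembl release 102 on GRCm38. The deposited values are a signal per gene labelled as normalized TPM, whose column totals differ, so they were not treated as plain TPM. Reads that fit several histone genes were split by kallisto, which affects single members. The files give no read counts, so depth and counting error are unknown.

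The 12590 genes that reached 1 in all 12 mice were tested as log2(value + 0.5) in limma 3.58.1 (R 4.3.3) by group alone, with Benjamini-Hochberg adjustment over all genes. A fold change on this scale understates that of low genes. Single members were compared by an exact permutation test, two-sided, of all 924 ways to assign the mice, whose smallest possible p is 0.00216. Sums over members were not tested. P-values set the difference between group means against the spread between mice. The limma fit used 1 variance per gene for both groups, although the SD was larger among sham controls in all 56 members. The members and lists were chosen with earlier results of these data known. The text names the 3 members of highest mean in each class, the 3 with the largest change each way, all replacement variants and the 3 genes of smallest p in each list; other genes were named after their values were seen. Slbp and the marker lists serve as context. Coordinates and transcript models come from GENCODE M21, in which all 66 members were found. The fitting step was tested on simulated data with known changes. Alternatives were other pseudocounts, filters and scalings, a replicate block, sample weights, an intensity trend and leaving out each mouse; added after seeing the data were removal of a length trend, leaving out sham 1, 2 and 6 together, and leaving out each mouse for the comparison of spreads.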

Additional observations from a re-analysis of the deposited data

Results flagged for a closer look

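In groups of 6 mice, the highest or lowest mouse was singled out where its gap to the next, as a share of the group's range, exceeded Dixon's 95% critical value. Of 64 such checks 16 met this, and chance gives about 1 in 20. Stroke mouse 3 stood above the other stroke mice in the log2 summed level of all members (14.5 against 13.3 to 13.6), of H2A (13.1) and of H3 (11.6), and in the share of the column total (2.24% against 1.22% to 1.48%). It also stood above them in the log2 levels of H2ac18 (10.7), Hist1h2ap (10.1), H2bc15 (9.72), H3c13 (9.04), H3c2 (9.04), H3c11 (8.79), H4c12 (9.59) and H3c15 (8.32).

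The make-up of the histone signal set 3 other mice apart. H1 took 14.9% of it in stroke mouse 5, where the other stroke mice had 8.09% to 10.1%. H2A took 46.8% in stroke mouse 6 (38.7% to 40.9% in the others), which also had the most genes above 0 (30060), and 44.9% in sham control 6 (38.8% to 40.9%). H3 took 9.68% in sham control 6 (11.9% to 12.95%). The checks share mice and reads, so they are not independent.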

How the results depend on the processing

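The counts of members called higher (0) and with an adjusted p under 0.05 in limma (0) held under every alternative. The count called lower was 0, except for 1 with each mouse rescaled to the same total and 1 with sample quality weights, H4c9 in both, and from 0 to 6 when 1 mouse was left out, with 6 without sham control 6 and 1 without sham control 2. Of all genes 0.548%, 5.58%, 9.18% and 1.15% were lower in these 4 fits, in that order. The SD was larger among sham controls in 56 of 56 members with any 1 mouse left out, an alternative chosen after seeing the data. Same-numbered mice did not all deviate together (correlations from 0.013 to 0.494), so the replicate block is only an alternative; with the replicate block 0 members were called in either direction and the median was -0.02.

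Log2 fold changes of named members that changed sign were, with sample quality weights, -0.023 for H1f2, -0.038 for H2ac18 and -0.037 for H3c2. Rescaled to the same total they were 0.023 for H2ac13, 0.12 for H2bc15, 0.099 for H3c11, 0.088 for H4c12 and 0.013 for H4c8. Quantile normalization gave 0.12 for H2ac13, 0.19 for H2bc15, 0.051 for H3c11, 0.12 for H4c12 and 0.0067 for H4c8. Of the alternatives chosen after seeing the data, removal of the length trend gave 0.065 for H2bc15, 0.045 for H3c11 and 0.033 for H4c12, and leaving out sham 1, 2 and 6 together gave 0.0038 for H2bc15 and -0.041 for H3c2. Leaving out 1 mouse in turn gave ranges of -0.17 to 0.41 for H1f2, -0.39 to 0.33 for H1f5, -0.69 to 0.14 for H1f1, -0.30 to 0.28 for H2ac18, -0.57 to 0.14 for H2ac13, -0.32 to 0.33 for Hist1h2ap, -0.24 to 0.40 for H2bc18, -0.49 to 0.25 for H2bc15, -0.64 to 0.084 for H2bc12, -0.37 to 0.29 for H3c13, -0.50 to 0.34 for H3c2, -0.55 to 0.21 for H3c11, -0.74 to 0.011 for Hist1h4n, -0.60 to 0.26 for H4c12, -0.69 to 0.13 for H4c8, -0.061 to 0.43 for H2ac10 and -0.21 to 0.59 for H3c15. In each of these members the low end came from leaving out sham control 6 and the high end from leaving out sham control 2. The cause was not tested. The read depth behind each mouse is unknown, near-identical members share reads, and column totals differ 2.51-fold between mice.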
